A study of Mus musculus with 4 samples.

Results

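The cells described here are the tdTomato fraction of the mouse ascending aorta and aortic arch, that is, cells with no record of Wnt1-Cre activity. The fraction was taken by its label and holds 2 of the study's 4 libraries, 1 from a female suspension and 1 from a male suspension. All cells came from Wnt1-Cre;Rosa26-mTmG mice, so every animal carried both the Cre transgene and the reporter. Neither a treatment nor an age was given. The female suspension was made from 1 sample and the male one from a pool of 2 samples, and the number of animals behind a sample was not stated. Tissue was digested with collagenase IV, dispase and DNase I in steps of 30, 60 and 90 minutes, red blood cells were lysed, and cells were sorted on GFP and tdTomato fluorescence alone. Messenger RNA was then profiled by SMART-Seq from 10 ng of RNA. The submitters labelled the cell type as vascular smooth muscle.

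In the mTmG reporter a cell makes membrane-bound red tdTomato until Cre recombinase removes that cassette, and from then on the cell and its descendants make green GFP. Wnt1-Cre acts in the dorsal neural tube and neural crest, which supplies part of the smooth muscle of the ascending aorta and arch. The tdTomato cells are therefore the remainder: smooth muscle of other origins such as the second heart field, together with adventitial fibroblasts, endothelium, leukocytes and any crest cell in which Cre did not act. The contractile proteins of smooth muscle, the collagens and elastic fibres of the wall and the vessel lining can each be followed through well known marker genes.

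The deposited totals were 13911281 estimated counts in the female library and 12837282 in the male library. Of 32948 genes in the table, 16227 had at least 10 counts in the female library and 15669 in the male one, and 13425 had that many in both. Levels are given as CPM, counts scaled to the library total, and, for comparisons between genes, as CPM per kb of exon. A count of 0 allows a level of up to 0.216 CPM in the female library and 0.234 CPM in the male one, the worth of 3 counts. These limits, and all intervals below, cover counting error only, because the reads carry no molecular identifiers. The 2 libraries differ in sex and in pooling as well as in suspension, so each mean ± SD (n = 2 libraries) describes these libraries and is no replicate error of a condition, and no test was made. In RNA from many cells, fewer cells of a type and less RNA per cell cannot be told apart.

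The most abundant named transcripts were contractile, cytoskeletal and matrix genes, beside nuclear and mitochondrial RNA and stress-responsive genes. The nuclear RNA Malat1 took the most reads, 47723 CPM in the female library and 44334 CPM in the male one. As a share of counts, this was 4.77% (95% Wilson interval 4.76% to 4.78%) and 4.43% (4.42% to 4.44%). The mitochondrial ribosomal RNA mt-Rnr2 followed with 28164 and 31605 CPM. Mgp, a matrix protein that keeps arterial walls from calcifying, stood at 8998 and 9954 CPM. Tmsb4x, an actin-binding peptide, stood at 9314 and 8160 CPM, and the immediate early gene Fos at 8914 and 7229 CPM. Myl6, a myosin light chain, reached 7735 and 5991 CPM. Dstn, which severs actin filaments, reached 6086 and 5661 CPM, and Acta2, the smooth muscle actin, 5256 and 3998 CPM. The intermediate filament gene Vim had 4547 and 4244 CPM, and Cpe, which trims peptide prohormones, 3916 and 3530 CPM. In the plot of the most abundant named genes the paired values lie close together for most genes, and the widest gaps are at Hsp90aa1 (3075 and 4928 CPM) and Egr1 (2693 and 4009 CPM).

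**Figure D1:**
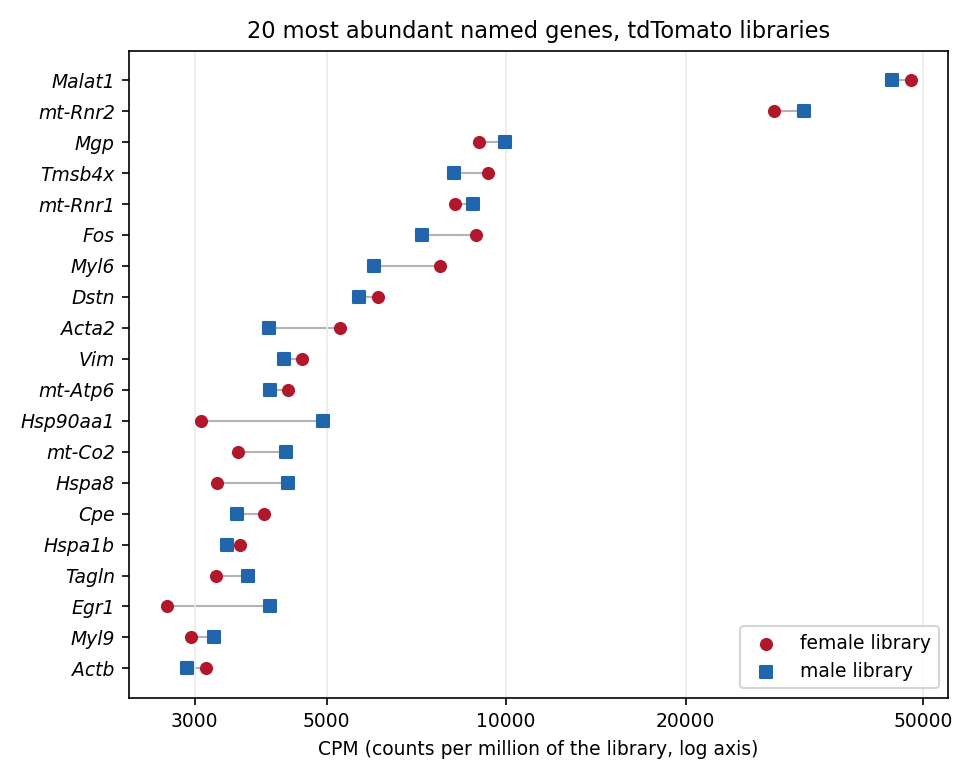
Levels of the 20 named genes with the highest mean CPM in the tdTomato fraction. The horizontal axis is CPM on a log scale, circles are the female library, squares the male library, and a grey line joins the 2 values of a gene. Malat1 and mt-Rnr2 stand apart at the upper end, and the next named gene, Mgp, lies at 8998 and 9954 CPM.

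Both libraries drew on the same leading genes. Of the 10 genes with the highest level in each library, 9 were shared, and of the leading 100, 83 were shared. The 100 most abundant genes held 30.5% of the female counts and 31.9% of the male counts (31.2% ± 0.966, SD, n = 2), and 1000 genes held 62.2% and 62.5%. Among the leading 100, 12 were cytosolic ribosomal protein genes, 9 were on the contractile smooth muscle list and 8 were mitochondrial. Heat shock genes made up 5 and immediate early genes 4. The fibroblast list contributed Dcn and Gsn, and the pericyte list Mcam. A further 6 were identifiers without a name in the annotation used here. One of these, at rank 3 of all genes by mean CPM and so above Mgp, had 11265 CPM in the female library and 23533 CPM in the male one.

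Scaled by exon length, the order changed. The mitochondrial ribosomal RNAs mt-Rnr2 and mt-Rnr1 led with means of 18890 and 8891 CPM per kb. Mgp came next at 7983 CPM per kb, ahead of Malat1 at 6591 and Tmsb4x at 6373 CPM per kb. Fos followed the mitochondrial messengers mt-Atp6 and mt-Co2 with 3432 CPM per kb, and Dstn had 3073 CPM per kb. Myl9, Myl6 and Acta2, from the contractile smooth muscle list, had means of 2664, 2153 and 2107 CPM per kb. For comparison, the median over all 25182 genes with a known length was 0.602 CPM per kb in the female library and 0.482 in the male one.

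Contractile smooth muscle genes had the highest summed level of the 23 cell type lists. All 18 members were in the table, and 17 had at least 10 counts in both libraries. Their summed level was 31334 CPM in the female library and 28382 CPM in the male one (29858 ± 2087, SD, n = 2), or 3.13% and 2.84% of all counts. Myl6 alone gave 7735 and 5991 CPM of this. The sum is one over listed genes and does not measure the share of smooth muscle cells. The median member stood at 171 and 152 CPM per kb. Tagln, an actin-binding protein of smooth muscle, had 3254 and 3688 CPM, and Myl9, the regulatory myosin light chain, 2955 and 3236 CPM. The thin filament genes Cald1 and Tpm2 had 2316 and 2023 CPM and 1729 and 1791 CPM. Mylk, the kinase that switches smooth muscle myosin on, had 2071 and 2149 CPM. Itga8, the integrin alpha 8 chain that anchors the cell to its matrix, had 2010 and 1863 CPM. Myh11, the heavy chain of smooth muscle myosin and a specific marker of this cell type, had 1351 and 1204 CPM. Nearly the whole contractile list was thus detected in both libraries. Genes of fibroblasts, endothelium and leukocytes, which the label of vascular smooth muscle does not name, were measured beside it. Detection at 10 counts does not tell these cell types apart, since all 15 fibroblast genes and 16 of 18 endothelial genes reached it too.

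Several other members of the contractile list were lower. Cnn1 and Lmod1, which regulate the actin filament, stood at 252 and 318 CPM and at 347 and 479 CPM. Actg2, the actin of visceral smooth muscle, had 75.8 and 98.4 CPM. Myocd, the coactivator that drives the contractile programme, had 107 CPM in the female library and 53.8 in the male one. Des had 20.9 and 23.6 CPM. Pln, the regulator of the calcium pump, had 9 counts and 1 count. Among all kept genes (those passing a filter of about 10 counts in each library, 0.748 CPM), 36.8% were at least 2-fold apart between the 2 libraries. Of the 17 kept contractile genes 0 were that far apart, and Myocd came closest with a 1.99-fold gap. These genes are far above the median level, and scatter depended on level, as described below.

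The promoters of the contractile and immediate early genes were read for the CArG box, the site bound by serum response factor. That factor is known to act on both groups, and they are the nuclear gene lists with the highest summed CPM here. Windows came from RefSeq (build GRCm38.p6) and span 250 bases before to 50 bases after a start site. The motif reads the same on both strands, so a match counts once for both. Of 27025 genes in the table, 488 (1.81%) had a match in a window. A match was present in 2 of 14 contractile genes with a window, Myl6 and Myl9, and in 3 of 18 immediate early genes, Srf, Egr2 and Zfp36. By level, 3 of 67 genes at a mean of 1000 CPM or more had a match (4.48%) and 11 of 280 at 300 to 1000 CPM (3.93%), and in the 7 classes below the share ran from 1.35% to 2.03%. A match is a run of letters and does not show that the factor binds, and a window without one says nothing about the factor. The 250 bases before the start site are shown for the 3 genes with 1 match and the most reads, 5′ to 3′ on the gene's strand, with the CArG box in capitals. They lie at chr10:128493010-128493259 (minus strand) for Myl6, chr2:156775214-156775463 (plus strand) for Myl9 and chr7:28379229-28379478 (minus strand) for Zfp36. The box begins 50 bases before the start site in Myl6, 161 in Myl9 and 58 in Zfp36, and the Myl6 window is 1 of 2 for that gene.
Myl6: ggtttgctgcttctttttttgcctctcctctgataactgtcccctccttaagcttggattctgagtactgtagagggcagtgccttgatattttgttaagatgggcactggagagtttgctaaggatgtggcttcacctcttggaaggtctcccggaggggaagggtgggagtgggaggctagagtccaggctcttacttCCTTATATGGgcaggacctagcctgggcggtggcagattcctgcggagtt
Myl9: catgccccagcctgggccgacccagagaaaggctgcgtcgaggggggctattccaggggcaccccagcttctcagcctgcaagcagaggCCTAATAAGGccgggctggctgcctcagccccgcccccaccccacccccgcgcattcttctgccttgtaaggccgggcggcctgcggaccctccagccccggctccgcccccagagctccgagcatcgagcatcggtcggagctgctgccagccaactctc
Zfp36: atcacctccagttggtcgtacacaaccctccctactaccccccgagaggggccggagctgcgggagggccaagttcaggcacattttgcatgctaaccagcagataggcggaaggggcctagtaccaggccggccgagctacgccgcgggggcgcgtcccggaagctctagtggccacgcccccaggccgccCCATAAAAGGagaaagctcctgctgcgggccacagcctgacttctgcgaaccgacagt

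Adventitial fibroblast genes formed the second list by summed level. All 15 members had at least 10 counts in both libraries, with a sum of 4471 CPM in the female library and 5661 in the male one (5066 ± 841, SD, n = 2). Dcn, a small proteoglycan of the collagen matrix, led with 2064 and 2421 CPM. Gsn, an actin-severing protein that other cells also make, had 815 and 1273 CPM, and Lum 481 and 422 CPM. The more restricted fibroblast genes were lower: the receptor gene Pdgfra had 73.8 and 67 CPM, and Col14a1 had 106 and 139 CPM. Pi16, a marker of adventitial progenitor-like fibroblasts, had 25.3 and 66.5 CPM. Of the 15 genes, 4 were at least 2-fold apart between the libraries, against 36.8% of kept genes of all levels. These were Dpt, Pi16, Dpep1 and Clec3b. Dpep1 was the widest, with 14.7 CPM in the female library and 104 in the male one. All of the 15 genes but Clec3b had means above 30 CPM, where at most 31.6% of the genes of a level class were 2-fold apart.

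The pericyte list summed to 2388 and 1870 CPM, most of it from Mcam (1461 and 1182 CPM), an adhesion molecule that smooth muscle also carries. Rgs5, a brake on G protein signalling in mural cells, had 532 and 317 CPM. Kcnj8 and Abcc9, which together form a potassium channel of pericytes, differed in level, with 6.33 and 6 CPM for Kcnj8 and 161 and 145 CPM for Abcc9. Per kb, the median pericyte gene reached 10.9 and 9.81 CPM, below the contractile list and above the median gene.

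Wall matrix was carried by a few genes. All 13 collagen chain genes had at least 10 counts in both libraries, and 0 of 13 were 2-fold apart, against 36.8% of kept genes of all levels. Most of the 13 had means above 100 CPM, where at most 14.8% of the genes of a level class were 2-fold apart. Col1a2, a chain of type I collagen, had 1496 and 1531 CPM, and Col3a1 1157 and 908 CPM. The basement membrane chains Col4a1 and Col18a1 had 429 and 473 CPM and 494 and 485 CPM. In the elastic fibre list, Eln, the elastin gene, stood at 796 and 556 CPM, and Ltbp1, which tethers latent TGF-beta to the matrix, at 773 and 635 CPM. Fbn1, the fibrillin of adult microfibrils, had 198 and 191 CPM, while Fbn2, its relative expressed mainly before birth, had 0 counts in both libraries. Lox, the crosslinking enzyme, was the 1 kept gene of 11 that was 2-fold apart (36.8% over all kept genes), with 363 and 162 CPM. Most of these 11 genes also had means above 100 CPM.

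Endothelial genes were present at low level. Of 18 members, 16 had at least 10 counts in both libraries, and the sum was 638 CPM in the female library and 423 in the male one (531 ± 152, SD, n = 2). Ptprb, the endothelial phosphatase, led with 184 and 136 CPM. The transcription factor gene Erg had 62.2 and 64.6 CPM, the junction gene Pecam1 54.8 and 44.9 CPM, and Cdh5, the endothelial cadherin, 18.7 and 25.9 CPM. These 4 genes differed by at most 1.38-fold between the libraries. Some other members of the list were further apart: Tek, the angiopoietin receptor, had 86.3 and 13.6 CPM, Emcn 16.6 and 1.95 CPM, and Kdr, the VEGF receptor, 15.7 and 3.43 CPM. Of 16 kept members 5 were 2-fold apart, against 36.8% of kept genes of all levels. Most kept members had means between 3 and 30 CPM. Of all genes with a count, kept or not, 63.3% were 2-fold apart at 3 to 10 CPM and 51.8% at 10 to 30 CPM. The filter left out Nos3, the endothelial nitric oxide synthase, with 112 and 2 counts, and Sox17 with 111 and 2 counts. On the lymphatic endothelium list, Lyve1 had 6.9 and 7.17 CPM, and Pdpn, which fibroblasts can also make, 14.6 and 12.2 CPM. Flt4, with 10 and 44 counts, and Ccl21a, with 68 and 3 counts, were left out by the filter.

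**Figure D2:**
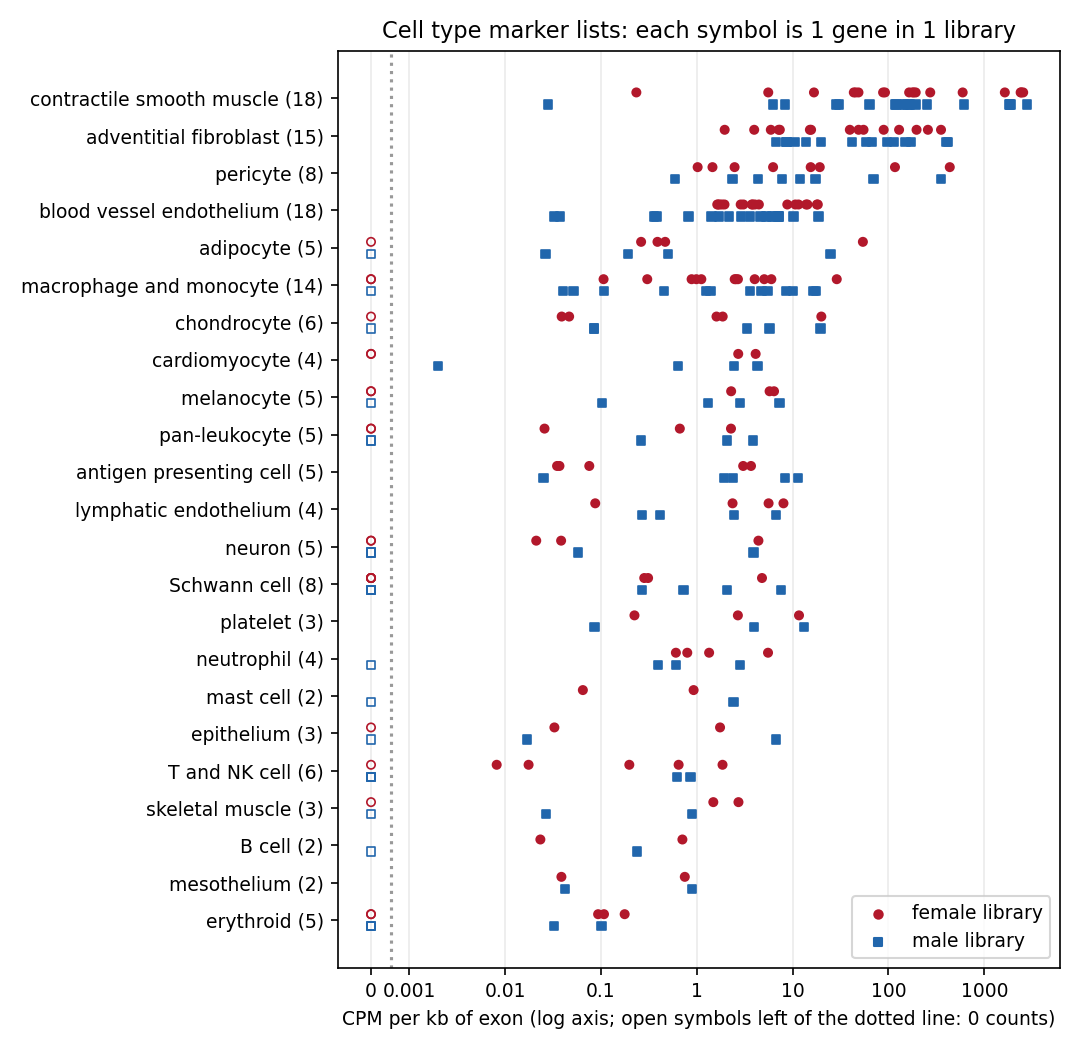
Levels of cell type marker genes in the tdTomato fraction, 1 row for each of 23 lists with the number of genes in the table in brackets. The horizontal axis is CPM per kb of exon on a log scale, filled circles are genes in the female library and filled squares genes in the male library, and open symbols left of the dotted line are genes at 0 counts. Contractile smooth muscle and adventitial fibroblast genes lie furthest to the right, and the erythroid list lies below 0.2 CPM per kb.

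Leukocyte genes were low, and members of a list had unlike patterns. Of 14 macrophage and monocyte genes in the table, 9 had at least 10 counts in both libraries, with sums of 71.5 and 164 CPM. Lyz2, the lysozyme of myeloid cells, had 47 counts (3.38 CPM) in the female library and 279 (21.7 CPM) in the male one. Csf1r, the receptor for macrophage colony-stimulating factor, had 5.1 and 20.8 CPM, and Mrc1, the mannose receptor of resident macrophages, 1.94 and 30.2 CPM. F13a1, also a resident macrophage gene, had 10 and 738 counts. Other myeloid genes lay the other way round: Itgam had 13.5 and 0.545 CPM, Ctss 5.46 and 0.623 CPM, and C1qc 30 counts and 1 count, although C1qa and C1qb, whose products join C1qc in 1 complex, had 36 and 73 counts and 15 and 142 counts. Cd163 had 0 counts in both. Of the 8 kept members, 7 were 2-fold apart, against 36.8% of kept genes of all levels. These 8 had means between 3 and 30 CPM. Of all genes with a count, 63.3% were 2-fold apart at 3 to 10 CPM and 51.8% at 10 to 30 CPM. Those shares include genes left out by the filter, with 2997 of 4143 and 3700 of 3963 genes kept. A share over kept genes alone was not computed by level.

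Ptprc, the gene of the common leukocyte antigen, had 0 counts in the female library and 909 counts (70.8 CPM) in the male one. Other genes of all leukocytes did not share that level in the male library: Cd53 and Coro1a had 0 counts there, Cd52 had 4 counts (0.312 CPM) and Laptm5 100 counts (7.79 CPM). Antigen presentation genes ran from H2-Ab1 at 7.84 and 29.1 CPM to H2-Eb1 with 1 and 48 counts. T cell genes were sparse, with Il7r at 3.02 and 2.88 CPM and Cd3e at 1 and 0 counts. On the platelet list, Pf4 stood at 8.41 and 9.5 CPM and Gp1bb at 5.61 and 8.26 CPM, while Itga2b had 17 and 6 counts. On the neutrophil list, the receptor genes Cxcr2 and Csf3r had 16.9 and 8.57 CPM and 2.88 and 2.18 CPM. The neutrophil genes S100a8, with 13 and 0 counts, and Retnlg, with 5 and 3 counts, were left out by the filter, as was Itga2b. The erythroid list reached at most 2 counts for a gene: Hba-a1 had 2 and 0 counts and Hbb-bs 1 count in each library.

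Cells that descend from the neural crest outside smooth muscle were looked for as well. Of 8 Schwann cell genes in the table, Sox10, Mbp and Cdh19 were among those with 0 counts in both libraries, and the most abundant, S100b, had 7.12 and 11.2 CPM. The melanocyte list was mixed. Dct and Tyr, enzymes of pigment synthesis, had 37.7 and 43.1 CPM and 40.9 and 20.2 CPM, whereas Tyrp1 had 0 counts in both libraries and Pmel 0 and 3 counts. Among neuronal genes Stmn2 alone was above 1 CPM, with 24.7 and 21.9 CPM, and Elavl4 and Dbh had 0 counts in both.

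Lists named for other tissues held some genes at clear levels and others near 0. Fabp4, a fatty acid carrier of fat and of capillary endothelium, had 243 and 111 CPM, while Adipoq had 9 and 0 counts. Ryr2, the calcium release channel best known from heart, had 78 and 70.9 CPM and Tnnt2 31.9 and 33.4 CPM, while Tnni3 had 0 and 17 counts and Ttn 0 and 3 counts. Sox9, the regulator of cartilage formation, had 82.5 and 80.6 CPM, the cartilage proteoglycan gene Acan 12 and 24.9 CPM, and the cartilage matrix gene Comp 5.54 and 17 CPM, while the cartilage collagen Col2a1 had 0.431 and 0.779 CPM. Epcam and Cdh1, markers of epithelium, had at most 1 count in a library, while Krt18, a keratin of simple epithelium, had 35 and 124 counts (2.52 and 9.66 CPM). Proliferation genes were low, with Mki67 at 2 counts in each library and Rrm2 highest of 7 at 10.6 and 12.2 CPM.

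Among regulators of the heart fields, Foxc1 led with 295 and 195 CPM, followed by Mef2c (195 and 186 CPM) and Gata6 (153 and 175 CPM), a gene of outflow tract smooth muscle. Isl1, which marks second heart field progenitors in the embryo, had 21 and 57 counts (1.51 and 4.44 CPM). Tbx20 had 53.6 and 6.7 CPM and was 1 of the 4 genes, of 8 kept, that were 2-fold apart, against 36.8% of kept genes of all levels. The others, Tbx5, Isl1 and Fgf10, had means of 3.77, 2.97 and 2.3 CPM. Of all genes with a count, kept or not, 65.5% were 2-fold apart at 1 to 3 CPM and 63.3% at 3 to 10 CPM. Among neural crest regulators, Prrx1, which is broad in mesenchyme, had 279 and 222 CPM. Twist1 had 10.8 and 9.74 CPM, and Sox10 and Pax7 were at 0 in both libraries. Of the 7 kept neural crest regulators 0 were 2-fold apart, against 36.8% of kept genes of all levels. Among those left out by the filter, Pax3 had 268 and 5 counts, Snai2 346 and 6 counts, and Wnt1 itself 0 and 62 counts.

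Genes that respond within minutes to stress or stimulation were abundant. Immediate early genes summed to 18803 and 20397 CPM (19600 ± 1128, SD, n = 2), or 1.88% and 2.04% of counts, and 21 of 22 had at least 10 counts in both libraries. Beside Fos and Egr1, Dusp1, a phosphatase that ends MAP kinase signalling, had 1061 and 1580 CPM. Klf4, which restrains the contractile programme, had 1197 and 1359 CPM, and Zfp36, which speeds the decay of cytokine messengers, 638 and 884 CPM. Atf3 and Jun had 575 and 654 CPM and 595 and 736 CPM. Of the 21 kept members 2, Egr2 and Egr3, were 2-fold apart, against 36.8% of kept genes, and most members lie above 100 CPM, where at most 14.8% of the genes of a level class were 2-fold apart. All 11 heat shock genes were detected in both libraries, with sums of 14928 and 19609 CPM. Hspa1b and Hspa1a, near-identical stress-inducible copies between which reads can be split, had 3575 and 3404 CPM and 1207 and 1318 CPM, and the cochaperone gene Dnajb1 had 819 and 1079 CPM.

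Cytokine and chemokine genes were lower and less alike. Il6 had 151 and 344 CPM, Ccl2, which recruits monocytes, 54.7 and 208 CPM, Ccl7 72 and 238 CPM and Cxcl1 75.2 and 220 CPM. Cxcl12, the stromal chemokine, had 128 and 142 CPM and was the 1 kept member of 7 that was not 2-fold apart. The other 6 were, against 36.8% of kept genes of all levels. Il6, Ccl7, Cxcl1, Cxcl12 and Ccl2 had means of 100 to 300 CPM, where 14.8% of all genes with a count were 2-fold apart. The share was 31.6% at 30 to 100 CPM, the class of Cxcl2, and 51.8% at 10 to 30 CPM, the class of Cxcl10. Ccl8 had 0 and 144 counts and Ccl11 144 and 0 counts, which are distinct chemokines with the same counts in opposite libraries.

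Agreement of the libraries was next described across genes. After the filter 13318 genes were kept, and Pearson's r of log2 CPM was 0.829 and Spearman's rho 0.809. Among the 8701 kept genes at a mean of 10 CPM or more, r was 0.721 over a narrower range of levels. Genes are not independent replicates, and both libraries share the kit and have similar depth, so these values describe this pair of libraries. The median signed log2 ratio was 0.00, so neither library was shifted against the other. Of the kept genes, 4897 (36.8%) were at least 2-fold apart and 543 (4.08%) at least 8-fold apart. The median gap was 1.64-fold, where counting error alone would give 1.06-fold. With an intercept as the sole term, edgeR's common biological coefficient of variation was 0.584.

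**Figure D3:**
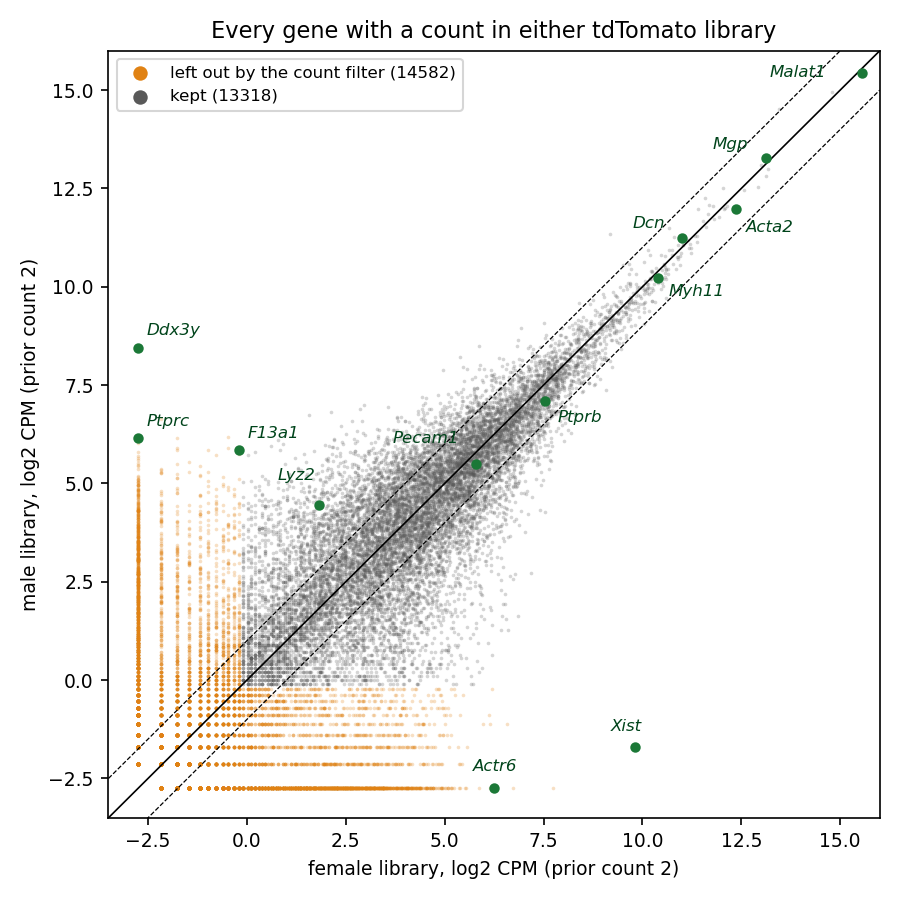
Level of every gene with a count in either tdTomato library, as log2 CPM with a prior count of 2, female library on the horizontal axis and male library on the vertical axis. Grey points are the 13318 kept genes, orange points the 14582 genes left out by the filter, green points named examples, the solid line equality and the dashed lines 2-fold. The cloud is narrow at high level, widens downward, and ends in orange bands along both axes where 1 library has few or 0 counts.

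The scatter depended on expression level, and in the range of many marker genes it was far beyond counting error. At a mean of 1000 CPM or more, 107 genes had a median gap of 1.14-fold, and 2.8% were 2-fold apart. At 300 to 1000 CPM the median gap was 1.22-fold and 3.49% of 372 genes were 2-fold apart. At 100 to 300 CPM these values were 1.31-fold and 14.8%, and at 30 to 100 CPM 1.56-fold and 31.6%. At 10 to 30 CPM, where a gene has about 139 to 417 counts in the female library, the median gap was 2.06-fold and 51.8% of 3963 genes were 2-fold apart. At 3 to 10 CPM 63.3% of 4143 genes were 2-fold apart, and at 1 to 3 CPM 65.5% of 3299, with median gaps of 3.08-fold and 3.48-fold. Counting error alone would place 1.66% of genes 2-fold apart at 1 to 3 CPM and 0.0209% at 3 to 10 CPM. Among kept genes, the trended coefficient of variation was 0.515 at 1 to 3 CPM and 0.695 at 3 to 10 CPM, and fell from there to 0.296 at 1000 CPM or more. Acta2, Myh11 and Dcn lie in the classes where libraries agree closely, Ptprb and Pecam1 in the middle, and Lyz2 at a mean of 12.6 CPM in a class where most genes were 2-fold apart.

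**Figure D4:**
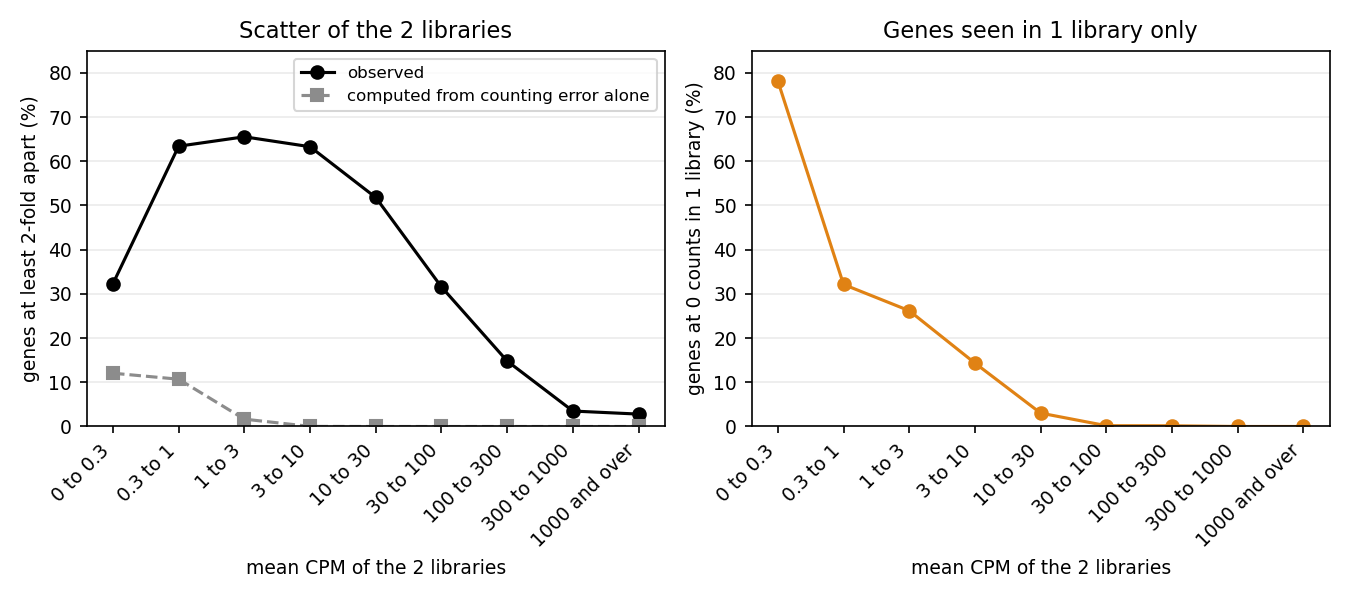
Scatter of the 2 tdTomato libraries by class of mean CPM, over all genes with a count. Left, the percentage of genes at least 2-fold apart (circles) beside the percentage computed from counting error alone (squares). Right, the percentage of genes at 0 counts in 1 library. The observed share peaks at 65.5% at 1 to 3 CPM and falls to 2.8% at 1000 CPM or more, while the computed share is below 2% from 1 CPM upward.

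Single genes at a mean of 100 CPM or more spanned the whole range. The closest pair of values belonged to Rpl10, a ribosomal protein gene whose processed copies can share its reads, with 1178 CPM in both libraries. Itgb1, the common beta integrin, had 501 CPM in both, and Nr3c1, the glucocorticoid receptor gene, 210 CPM in both. The widest gaps were sex-linked, in Xist with 12582 and 2 counts and Ddx3y with 0 and 4470 counts, which match the labels of sex. Of the other Y-linked genes listed, all below that level, Eif2s3y had 1 and 1271 counts and Kdm5d 5 and 25. Uty did not separate the libraries in this way, with 110 and 185 counts. Xist and its antisense partner Tsix cannot be told apart without strand. At 100 CPM or more, the widest gaps after Xist and Ddx3y included Ubr3 (187 and 19.2 CPM) and Polr2l, an RNA polymerase subunit (44.2 and 247 CPM). Nfkb1, a subunit of the inflammatory regulator NF-kB, had 31 and 234 CPM. Eif4enif1 had 174 and 31.2 CPM, Top2b, a topoisomerase, 178 and 33.7 CPM, and Zfp445 59.1 and 259 CPM. Household genes covered most of this range too: Ppia had 1075 and 986 CPM and Gapdh 227 and 205 CPM, whereas Tbp, the TATA-binding protein gene, had 34 counts and 411 counts (2.44 and 32 CPM).

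The filter left out 14582 of the 27900 genes with a count in either library (52.3%), which held 1.85% of the female counts and 1.55% of the male counts. Of all genes with a count, 9111 (32.7%) were at 0 in 1 library: 4646 in the female one and 4465 in the male one. Most of the genes left out were barely seen, and 9429 had at most 9 counts in their higher library. They were poorer in protein coding genes than the kept set, 32.4% against 75.3%, and richer in entries without an approved name, 68.9% against 25.8%. Their median exon length was 2356 bases against 4356. The remaining 5153 had at least 10 counts in 1 library, and 813 had at least 10 CPM there. Of the latter, 407 were at 0 in the other library, 203 in the female and 204 in the male one. Put against all 10439 genes that reached 10 CPM in a library, 7.79% were left out by the filter.

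**Figure D5:**
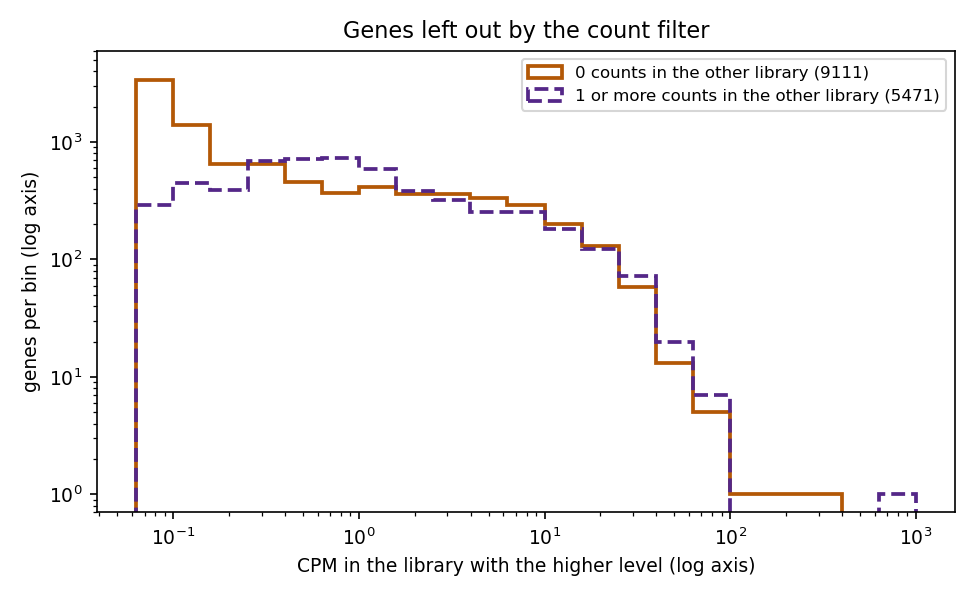
Genes left out by the count filter, by their CPM in the library with the higher level (log axis). The vertical axis counts genes per bin on a log scale. The solid line shows the 9111 genes at 0 counts in the other library and the dashed line the 5471 genes with 1 or more counts there. Most lie below 1 CPM, and both lines extend past 30 CPM, where 116 genes were left out.

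Several genes left out were well covered in the library that held them. Beside Ddx3y, the genes with the highest mean level at 0 in 1 library included Actr6, a chromatin remodelling subunit, with 1056 and 0 counts. Ptprc and Zfp677 had 0 and 909 and 975 and 0 counts. Pycard, the adaptor of the inflammasome, had 0 and 838 counts, and Il1rap, the accessory chain of the interleukin 1 receptor, 815 and 0 counts. Genes left out with counts in both libraries included Mrps33, a mitochondrial ribosomal protein gene, with 1330 and 4 counts, Eif5a2 with 971 and 5 counts, Itgb8 with 2 and 916 counts, and Mcm4, a replication helicase subunit, with 8 and 769 counts. Counts of 0 thus occurred in either library, in genes of widely different function.

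By list, the filter left out 0 of 15 fibroblast genes, 0 of 13 collagen chains, 0 of 11 heat shock genes, 1 of 18 contractile genes and 2 of 18 endothelial genes, against 52.3% of all genes with a count. It left out 5 of 13 macrophage genes with a count, F13a1, Itgam, Ctss, C1qc and Cx3cr1, and 3 of 4 pan-leukocyte genes, Ptprc, Cd52 and Coro1a. It also left out 6 of 13 neural crest regulators and 5 of 7 cell cycle genes. The macrophage and neural crest shares lie below that of all genes with a count, but that share comes mostly from barely seen genes. Of the 14582 genes left out, 9429 had at most 9 counts in their higher library. Of genes that reached 10 CPM in a library, 7.79% were left out. The lists were not compared with genes of like level. Of the cell type markers left out, Ptprc with 909 counts and F13a1 with 738 counts, both in the male library, had the highest counts in a single library.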

How the data were processed

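RNA of tdTomato-sorted cells was measured in 2 libraries (SMART-Seq V4, oligo(dT) priming, PCR, transposase, paired reads of 150 bases, per the labels' protocols). The kit does not mark strand, so reads of overlapping or antisense genes are mixed. Build GRCm39 and the tools fastp, HISAT2 and StringTie are listed in the submitters' processing notes. Which program counted, and on which annotation, is not given in the sources used here. What the authors deposited were expected counts per gene, that is, estimated counts with decimals and no scaling, of which 59.8% and 60.7% were whole (tolerance 1e-06).

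Counts were rounded, giving totals of 13911111 and 12837085, and divided by these totals to CPM. Ratios used a prior count of 2. Genes were kept by edgeR's filterByExpr (edgeR 4.0.16, R 4.3.3) at a minimum count of 10 with both libraries as 1 group. The share of genes 2-fold apart by counting error was computed from the binomial split of each gene's counts. Symbols and exon lengths came from GENCODE M21, an earlier build, matched by identifier for 25182 genes (76.4%) that held 94.9% and 93.0% of the counts. Its coordinates were not used. Of 333 list entries, 53 without a match were not analysed here. The dispersion script was tested on simulated data.

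No GFP library was used, no test was made, and the libraries were not contrasted by sex. Named genes were the 20 highest by CPM and the 10 highest by CPM per kb, members of the 34 lists, the 10 closest and the 10 widest pairs at 100 CPM or more, and the 10 highest genes of each kind left out. Gene models without an approved name were counted only. Some genes that this rule takes are not reported here, although counts and sums include them. The fraction and the lists were chosen with earlier results of these data known. Alternatives were TMM and DESeq2 1.42.0 scaling, other prior counts and filters, and leaving out each library.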

Additional observations from a re-analysis of the deposited data

How the results depend on the processing

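One limit is that 2 libraries give 1 gap per gene, with no replicate of either. No paired analysis was possible because no result comes from a test, and the numbers 1 and 2 that name the libraries follow accession order and are not in the labels. TMM scaling was applied to agreement, scatter, list sums and gene means, and DESeq2 size factors to agreement and scatter alone. Under either, r stayed at 0.829, the median absolute log2 ratio at 0.71 and the share 2-fold apart at 36.8%. The largest change of a CPM value under TMM was 0.0005%. Without a filter beyond 1 count, 27900 genes entered in place of 13318. Pearson's r was then 0.814, the median absolute log2 ratio 0.93 in place of 0.71, and 45.7% of genes were 2-fold apart in place of 36.8%. With a prior count of 0.5, r was 0.827 and the median absolute log2 ratio 0.72. A prior count of 5 gave an r of 0.833, a median of 0.69 and 35.7% of genes 2-fold apart. Spearman's rho was 0.809 against an r of 0.829. Without the mitochondrially encoded genes and Malat1, the 100 most abundant genes held 24.6% of counts in place of 31.2%. A minimum of 20 counts left 11854 genes in both libraries, and a minimum of 5 left 14948, against 13425 at 10. Leaving out each library gave 15669 to 16227 genes at 10 counts, 14617 to 15207 kept genes (an alternative chosen after seeing the data) and a share of 30.7% to 32.0% in the leading 100. Each of the 34 list sums and 200 gene means then moved by less than 1 SD, which is so by construction with 2 libraries. Agreement and scatter have no value with 1 library.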

Other observations

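The scatter of protein coding genes was also read by the GC content of a gene's longest annotated transcript, in classes of 3 equal parts within each level. This reading was chosen after the values were seen, and a part of GC content in the scatter was not tested. At a mean of 10 to 30 CPM, 60.4% of the 1082 genes of low GC (median 43.5%) were at least 2-fold apart, 53.6% of those in the middle and 41.5% of those of high GC (median 56.2%). At 30 to 100 CPM the shares were 38.0%, 32.3% and 24.3%, and at 100 CPM or more 15.3%, 12.5% and 6.36%. Median levels of the low, middle and high parts in the last class were 183, 176 and 193 CPM. At 30 to 100 CPM they were 53.5, 49.9 and 47.9 CPM, and at 10 to 30 CPM 18.1, 17.3 and 16.3 CPM. A part of level in the order of the shares was not tested. At 3 to 10 CPM, 18.2% of genes of low GC were at 0 counts in 1 library and 9.57% of those of high GC.

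Exon length showed less of an order. At 10 to 30 CPM, 49.2% of short, 53.7% of middle and 52.5% of long protein coding genes were 2-fold apart. At 3 to 10 CPM, 16.2% of short genes (median 2.3 kb) and 9.57% of long genes (median 7.4 kb) were at 0 counts in 1 library. Identifiers without a name were 2-fold apart less often than protein coding genes at 3 to 10 CPM, 54.9% of 729 against 66.2% of 2538, and this difference was not tested.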
